A study of Mus musculus with 10 samples.

Results

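The genes described here are the mouse alpha-type and beta-type globin genes, 7 of the 28165 genes in the deposited table. Members were taken by gene symbol, with no threshold on a measured value, although earlier results of these data were known when the family was picked. Hba-x, Hbb-y and Hbb-bh1 are the embryonic members, and Hba-a1, Hba-a2, Hbb-bs and Hbb-bt are the adult members. Each symbol matched 1 gene of the table.

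Bulk RNA sequencing was done on sorted smooth muscle cells of the mouse aorta at embryonic day 15.5, in 5 Eln+/+ libraries and 5 Eln-/- libraries. Eln encodes elastin, the core protein of elastic fibres, and the series asks what its loss does to these cells. Embryos of both genotypes came from intercrosses of Eln+/- mice that carried a green fluorescent reporter of Acta2, the smooth muscle actin gene, and no treatment was given. Aortas were digested with collagenase, and cells were taken that had the reporter, lacked the endothelial protein CD31 and excluded the dye DAPI, which marks dead cells. The labels do not give the Eln allele, the strain background, the number of embryos per library or whether replicates are separate embryos, so p-values here reflect library-to-library spread alone, part of which may be technical. Per the labels, no red cell protein was used in the sort.

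Haemoglobin is assembled from alpha-type and beta-type globin chains, each holding a haem group that binds oxygen. In the mouse, the alpha-type genes lie in 1 cluster and the beta-type genes in another, and within each cluster the genes are used in turn during development. Primitive red cells, which arise in the yolk sac, make the embryonic chains, and they make adult chains as they mature. Definitive red cells, which arise in the fetal liver, make almost entirely adult chains and replace the primitive cells in the blood during the second part of gestation. Globin RNA is very abundant in red cell precursors and is still carried by young red cells in the blood, so it is often found in RNA from dissected tissue.

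The coding stretches below show which members the counting could tell apart, which decides how their separate values can be read. They are coding sequence of the GENCODE release 21 annotation (GRCm38, the assembly also called mm10), read 5′ to 3′, and positions count from 1 at the first base of the start codon. The first set covers coding positions 345 to 404 of the alpha-type genes. In Hba-a1 and Hba-a2 the capital marks the base at which these 2 genes differ from each other, and in Hba-x the capitals mark the 25 bases that differ from Hba-a1.
Hba-a1: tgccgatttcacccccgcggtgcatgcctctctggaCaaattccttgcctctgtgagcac
Hba-a2: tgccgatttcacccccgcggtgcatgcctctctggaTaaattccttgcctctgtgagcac
Hba-x: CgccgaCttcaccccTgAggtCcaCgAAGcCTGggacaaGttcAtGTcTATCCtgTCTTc

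The second set covers coding positions 381 to 440 of the beta-type genes. In Hbb-bs and Hbb-bt the capital marks the base at which these 2 genes differ from each other, and in Hbb-y and Hbb-bh1 the capitals mark the 9 and 11 bases that differ from Hbb-bs.
Hbb-bs: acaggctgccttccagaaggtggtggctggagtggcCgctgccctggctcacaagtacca
Hbb-bt: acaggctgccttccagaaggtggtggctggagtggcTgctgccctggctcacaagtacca
Hbb-y: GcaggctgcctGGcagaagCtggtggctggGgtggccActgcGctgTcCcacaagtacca
Hbb-bh1: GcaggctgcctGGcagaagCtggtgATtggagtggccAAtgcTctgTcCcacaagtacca

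The alpha-type genes lie on the plus strand of chromosome 11 in GRCm38. Hba-x spans chr11:32276400-32278116, Hba-a1 spans chr11:32283511-32284465 and Hba-a2 spans chr11:32296489-32297298. The beta-type genes lie on the minus strand of chromosome 7. Hbb-y spans chr7:103851749-103853216, Hbb-bh1 spans chr7:103841637-103843164, Hbb-bs spans chr7:103826534-103828096 and Hbb-bt spans chr7:103812524-103813996. Each gene has 3 annotated exons. The stretches printed above lie at chr11:32284307-32284366 for Hba-a1, chr11:32297124-32297183 for Hba-a2 and chr11:32277924-32277983 for Hba-x. Those of the beta-type genes lie at chr7:103826669-103826728 for Hbb-bs, chr7:103812660-103812719 for Hbb-bt, chr7:103851878-103851937 for Hbb-y and chr7:103841756-103841815 for Hbb-bh1.

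Within each adult pair the coding sequences are almost identical, whereas the embryonic genes are clearly distinct from the adult ones. Hba-a1 and Hba-a2 differ at 1 of 426 coding bases (99.77% identity), the substitution C381T from Hba-a1 to Hba-a2. Hbb-bs and Hbb-bt differ at 1 of 441 coding bases (99.77% identity), the substitution C417T from Hbb-bs to Hbb-bt. Both substitutions fall on base 3 of a codon. Hba-x shares 61.7% of its coding bases with Hba-a1, Hbb-y shares 74.4% with Hbb-bs, Hbb-bh1 shares 73.9% with Hbb-bs, and Hbb-y and Hbb-bh1 share 76.4% with each other.

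The same division was seen in windows of 50 bases taken along the spliced transcripts. Of the windows of Hba-a2, 86.9% also occur in Hba-a1, and 67.5% of those of Hba-a1 occur in Hba-a2. For Hbb-bs, 65.8% of windows occur in Hbb-bt, and 58.3% of those of Hbb-bt occur in Hbb-bs. No window of Hba-x, Hbb-y or Hbb-bh1 occurs in another of the 7 genes. The deposited values follow this division: all 15 non-zero values of the embryonic genes were whole numbers, against 3 of 40 values of the adult genes (tolerance 1e-06). The separate levels of Hba-a1 and Hba-a2, and of Hbb-bs and Hbb-bt, are therefore uncertain, since they depend on how the counting divided shared reads. Plain count sums over an adult pair do not depend on the division within the pair, but sums per kb do, since the 2 genes differ in length. Some plain sums were not whole either.

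Library totals were 26951733 to 63866416 counts. Eln was measured at 2409 to 105866 counts in Eln+/+ and at 0 to 36 counts in Eln-/-, with the 36 in replicate 1. At least 1 count was found for 15089 to 22951 genes per library, and Eln+/+ replicate 1, Eln-/- replicate 4 and Eln-/- replicate 5 had the fewest. The summed level of 7 smooth muscle markers was 1025 to 3474 CPM (counts scaled to a library total of 1e6) in Eln+/+ and 573 to 5203 CPM in Eln-/-. Single markers were not all high in every library. Lowest values over the 10 libraries were 292 CPM for Acta2, 148 for Tagln, 40.3 for Myl9, 10.9 for Tpm2 and 8.04 for Cnn1. Myh11 fell to 0.0319 CPM in Eln-/- replicate 5 and Smtn to 0 in Eln+/+ replicate 1. Markers of other cell types were present at levels that varied widely between libraries. For 5 fibroblast genes the summed level was 732 to 10443 CPM in Eln+/+ and 286 to 15434 CPM in Eln-/-, for 6 cardiomyocyte genes 4.89 to 1205 and 20.2 to 1097 CPM, and for 8 endothelial genes 0.890 to 77.7 and 0.478 to 50.7 CPM. Of the blood cell lists other than red cells, 11 macrophage genes were at 1.31 to 36.4 and 0.0638 to 14.3 CPM, 5 leukocyte genes at 0.0757 to 6.42 and 0.494 to 9.15 CPM, and 7 platelet genes at 1.56 to 10.4 and 2.48 to 16.1 CPM.

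Globin RNA was found in every library, and its amount differed far more between libraries than between genotypes. The 7 genes together held 1.06%, 0.0450%, 0.156%, 0.0933% and 0.119% of all counts in Eln+/+ replicates 1 to 5. They held 0.00286%, 0.0805%, 0.133%, 0.250% and 0.0523% in Eln-/- replicates 1 to 5. A library at each end stood apart: Eln+/+ replicate 1 was the highest of the 10 and Eln-/- replicate 1 the lowest, and the ranges of the genotypes overlapped. The sum was 371-fold higher in the highest library than in the lowest, and 5.56-fold higher in the second highest than in the second lowest.

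The share averaged 0.295% ± 0.430 (SD, n = 5) in Eln+/+ and 0.104% ± 0.0944 (SD, n = 5) in Eln-/-. Without replicate 1 of each genotype it averaged 0.103% ± 0.0465 (SD, n = 4) in Eln+/+ and 0.129% ± 0.0874 (SD, n = 4) in Eln-/-, so the order of the means turned. Without Eln-/- replicate 4 alone the Eln-/- mean was 0.0672%. With all libraries the difference was smaller than the SD of Eln+/+ but larger than that of Eln-/-, and without replicate 1 it was smaller than either SD. In such bulk libraries the number of red cells and the globin RNA per red cell cannot be told apart, and the source of the globin RNA was not tested.

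Hba-a1 and Hba-a2 encode the adult alpha chain. Hba-a1 stood at 1543, 99.1, 338, 197 and 229 CPM of the library total in Eln+/+ replicates 1 to 5, and at 11.6, 164, 281, 316 and 79.8 CPM in Eln-/- replicates 1 to 5. Hba-a2 stood at 2399, 157, 591, 329.8 and 375 CPM in Eln+/+ and at 8.16, 299, 463, 443 and 137 CPM in Eln-/-. In both genes Eln+/+ replicate 1 was the highest library and Eln-/- replicate 1 the lowest, and the other 8 libraries of the 2 genotypes interleaved.

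The mean of Hba-a1 was 481 ± 599 CPM (SD, n = 5) in Eln+/+ and 170.5 ± 129 CPM (SD, n = 5) in Eln-/-, and that of Hba-a2 was 770.3 ± 924 and 269.9 ± 196 CPM. In Eln+/+ each SD exceeded its mean. In edgeR's quasi-likelihood test over all genes, with libraries rescaled by TMM factors, the log2 fold change of Eln-/- over Eln+/+ was -1.63 (SE 1.152, adjusted p = 0.9997) for Hba-a1. It was -1.69 (SE 1.18, edgeR adjusted p = 0.9997) for Hba-a2. Without replicate 1 of each genotype the CPM means were 216 ± 98.5 and 210.2 ± 109 for Hba-a1 and 363 ± 178 and 335 ± 151 for Hba-a2 (SD, n = 4 each, Eln+/+ first).

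Hbb-bs and Hbb-bt encode the adult beta chain. Hbb-bs stood at 5598, 161, 516.5, 348 and 475 CPM of the library total in Eln+/+ replicates 1 to 5, and at 8.41, 263, 465, 1435 and 252 CPM in Eln-/- replicates 1 to 5. Hbb-bt stood at 1044, 32.1, 83.4, 54.7 and 107 CPM in Eln+/+ and at 0.384, 70.5, 96.4, 301 and 54.8 CPM in Eln-/-. Eln+/+ replicate 1 was again the highest and Eln-/- replicate 1 the lowest, and here Eln-/- replicate 4 was second highest in both genes. In Eln+/+ replicate 1, Hbb-bs was the gene of rank 15 in the library, and in Eln-/- replicate 1 it had rank 10130, with 474 counts. The lowest Hbb-bt value rests on 22 counts.

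The mean of Hbb-bs was 1419.9 ± 2339.8 CPM (SD, n = 5) in Eln+/+ and 485 ± 555 CPM (SD, n = 5) in Eln-/-, and that of Hbb-bt was 264 ± 437 and 105 ± 115 CPM. All 4 SDs exceeded their means. In edgeR's test the log2 fold change was -1.54 (SE 1.47, adjusted p = 0.9997) for Hbb-bs and -1.35 (SE 1.51, adjusted p = 0.9997) for Hbb-bt. Without replicate 1 of each genotype the CPM means were 375 ± 159.6 and 604 ± 563 for Hbb-bs and 69.2 ± 32.7 and 131 ± 115 for Hbb-bt (SD, n = 4 each, Eln+/+ first), so the order turned.

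Hba-x encodes zeta globin, the embryonic alpha-type chain. It had 402, 29, 226, 0 and 0 counts in Eln+/+ replicates 1 to 5 and 0, 56, 29, 64 and 0 counts in Eln-/- replicates 1 to 5. These counts correspond to 14.9, 0.454, 5.26, 0 and 0 CPM in Eln+/+ and to 0, 1.12, 0.717, 2.26 and 0 CPM in Eln-/-. It was detected in 3 libraries of each genotype, highest in Eln+/+ replicate 1. The mean was 4.13 ± 6.43 CPM (SD, n = 5) in Eln+/+ and 0.820 ± 0.937 CPM (SD, n = 5) in Eln-/-, with overlapping ranges. The edgeR log2 fold change was -2.37 (SE 2.25, adjusted p = 0.9997).

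Hbb-y encodes the embryonic epsilon-y chain. It had 234, 20, 992, 121 and 7 counts in Eln+/+ replicates 1 to 5 and 0, 408, 991, 164 and 0 counts in Eln-/- replicates 1 to 5. These are 8.68, 0.313, 23.1, 2.31 and 0.177 CPM in Eln+/+ and 0, 8.19, 24.5, 5.78 and 0 CPM in Eln-/-. Unlike the adult genes, Hbb-y was highest in replicate 3 of each genotype and not in Eln+/+ replicate 1. The mean was 6.92 ± 9.69 CPM (SD, n = 5) in Eln+/+ and 7.70 ± 10.1 CPM (SD, n = 5) in Eln-/-, and the edgeR log2 fold change was 0.05 (SE 1.81, adjusted p = 0.9997).

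Hbb-bh1 encodes beta-h1, an embryonic beta-type chain used mostly before Hbb-y. It had 40 counts (1.48 CPM) in Eln+/+ replicate 1, the library with the most globin RNA, and 0 in the other 9. It was removed by the filter on low counts and has no test. The level that a count of 0 allows, 3 counts, was 0.0470 to 0.106 CPM in those 9 libraries, so absence cannot be told from a level below this.

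**Figure D1:**
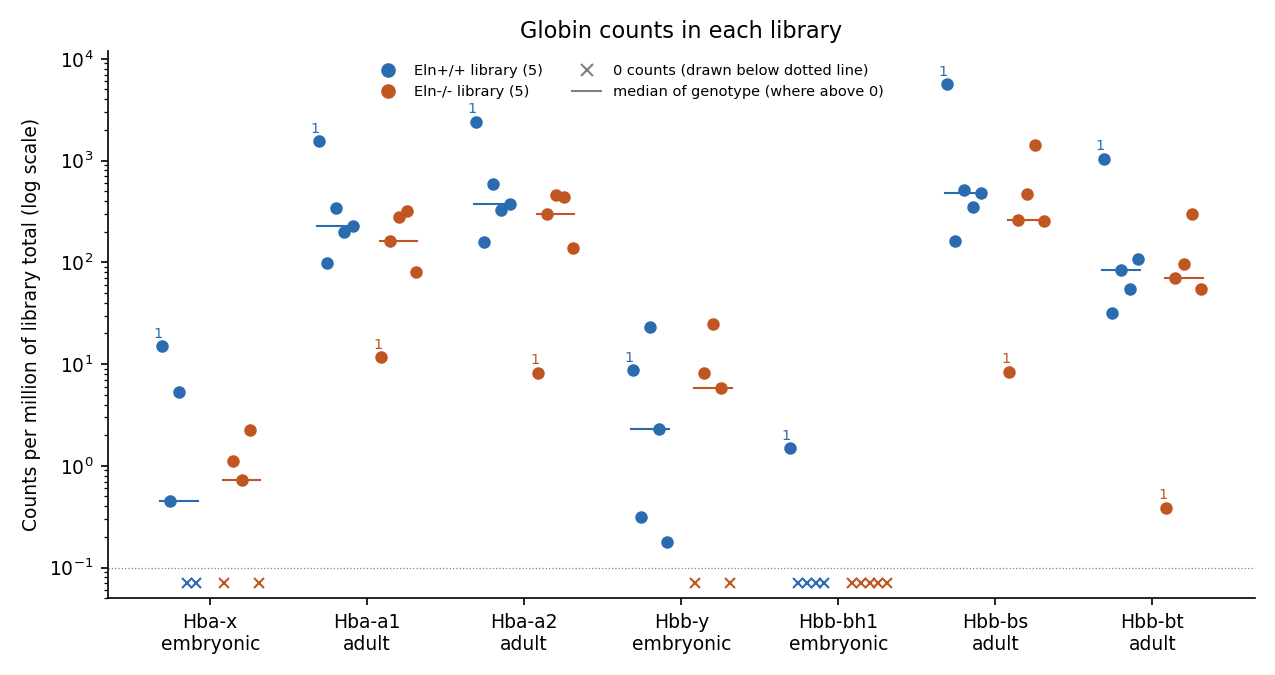
CPM of the library total (log axis) for the 7 globin genes, with 1 point per library coloured by genotype and crosses below the dotted line for libraries without counts and short bars for genotype medians above 0. Hba-a1, Hba-a2, Hbb-bs and Hbb-bt lie above the embryonic genes, and the points of the 2 genotypes overlap in all 6 tested genes, with Eln+/+ replicate 1 highest in the 4 adult genes and Eln-/- replicate 1 lowest.

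No member passed the test between genotypes. Of the 7 members, 6 were tested, 0 were called higher and 0 lower at an adjusted p under 0.05 in edgeR's test, against 0% of the 15718 genes tested in each direction, where the smallest adjusted p was 0.152. At an unadjusted p under 0.05, 0 of 6 members were counted, against 0.515% of all genes (81 genes, 0.369% higher and 0.146% lower in Eln-/-). The genotypes' CPM ranges overlapped in all 6, whereas they did not overlap in 0.14% of genes higher and 0.165% lower in Eln-/-. DESeq2 and limma-voom with sample quality weights passed 6 and 7 genes, none of them a member. DESeq2 gave no p-value for the 4 adult members, so they could not pass there. The p-values it gave for Hba-x and Hbb-y, and those of limma-voom for the 6 members, were all above 0.05 before adjustment. The median log2 fold change was -1.16 over the 2 tested embryonic members and -1.59 over the 4 adult members, against 0.02 over all genes tested. The members' counts of 0 were thus no different from a background near 0.

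The sign of the adult genes' fold changes rested on Eln+/+ replicate 1. Without it the edgeR log2 fold change was 0.32 for Hba-a1, 0.17 for Hba-a2, 1.31 for Hbb-bs, 1.51 for Hbb-bt and 0.02 for Hba-x, against negative values with it. Without replicate 1 of both genotypes it was 0.60 for Hba-a1, 0.46 for Hba-a2, 0.31 for Hba-x, 1.59 for Hbb-bs and 1.80 for Hbb-bt, where the median of all genes was -0.24. Over the alternatives that gave one, the adjusted p of the 6 tested members was 0.606 to 1, the lowest for Hbb-bt, and DESeq2 gave none for the 4 adult members.

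The spread over libraries differed among the members. The SD of log2 CPM over the 10 libraries, with libraries rescaled by TMM factors and a prior count of 2, was 2.14 for Hba-a1, 2.40 for Hba-a2, 2.77 for Hbb-bs, 3.23 for Hbb-bt, 3.44 for Hba-x and 3.68 for Hbb-y. The median over all genes tested was 1.79, and the members lay between the 58.1th percentile (Hba-a1) and the 96.4th (Hbb-y). On the CPM scale of library totals, the highest library exceeded the lowest 133-fold for Hba-a1, 294-fold for Hba-a2, 665-fold for Hbb-bs and 2716-fold for Hbb-bt. The highest exceeded the second highest 4.56-fold for Hba-a1, 4.06-fold for Hba-a2, 3.90-fold for Hbb-bs and 3.47-fold for Hbb-bt.

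To compare levels between genes, CPM was divided by the merged length of each gene's exons. The median over the 10 libraries was 529 CPM per kb for Hbb-bs, 528 for Hba-a2, 262 for Hba-a1, 109 for Hbb-bt, 6.39 for Hbb-y, 0.624 for Hba-x and 0 for Hbb-bh1. Hbb-bs exceeded Hba-a2 in 4 of 10 libraries, so these neighbours did not differ in a fixed order. Hba-a2 exceeded Hba-a1 in 9 libraries, Hba-a1 exceeded Hbb-bt in 9, Hbb-bt exceeded Hbb-y in 10, Hbb-y exceeded Hba-x in 7, and Hba-x exceeded Hbb-bh1 in 6. As a share of a library's globin counts, Hbb-bs held 40.2% ± 9.38, Hba-a2 30.7% ± 6.75, Hba-a1 20.9% ± 7.73 and Hbb-bt 7.70% ± 3.05 (SD, n = 10). Hbb-y held 0.499% ± 0.688, Hba-x 0.0863% ± 0.106, and Hbb-bh1 0.00140% on average.

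The balance of embryonic and adult chains was then taken within the beta-type genes. Counts were divided by merged exon length, and the embryonic share was Hbb-y plus Hbb-bh1 over all 4 beta-type genes. It was 0.184%, 0.193%, 4.41%, 0.683% and 0.0362% in Eln+/+ replicates 1 to 5. It was 0%, 2.84%, 4.96%, 0.396% and 0% in Eln-/- replicates 1 to 5. Adult chains thus made up more than 95% of beta-type globin RNA in every library, and the embryonic share was highest in replicate 3 of each genotype and in Eln-/- replicate 2. The means were 1.10% ± 1.87 (SD, n = 5) in Eln+/+ and 1.64% ± 2.20 (SD, n = 5) in Eln-/-, a difference smaller than either SD. Without its replicate 3 each genotype's mean was lower, at 0.274% in Eln+/+ and 0.810% in Eln-/-.

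Counting error was small beside most of these differences between libraries. As a share of plain counts, with exact Clopper-Pearson 95% intervals, it was 3.71% (3.49 to 3.94) in Eln+/+ replicate 3 and 4.18% (3.93 to 4.45) in Eln-/- replicate 3, whose intervals overlapped. It was 2.40% (2.17 to 2.64) in Eln-/- replicate 2, 0.571% (0.474 to 0.682) in Eln+/+ replicate 4 and 0.332% (0.283 to 0.387) in Eln-/- replicate 4. It was 0.153% (0.135 to 0.172) in Eln+/+ replicate 1, 0.162% (0.0987 to 0.249) in Eln+/+ replicate 2 and 0.0303% (0.0122 to 0.0625) in Eln+/+ replicate 5. The value of Eln-/- replicate 1 rests on 496 beta-type counts, where a count of 0 allows a share of up to 0.605%, and that of Eln-/- replicate 5 rests on 9623, where it allows up to 0.0312%. Reads without molecular identifiers are not independent molecules, so these intervals and limits cover counting error only.

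Among the libraries with a detected embryonic beta share, the largest shares were not in those with the most globin RNA. Globins took their largest shares of counts in Eln+/+ replicate 1 and Eln-/- replicate 4, which had embryonic beta shares of 0.184% and 0.396%, and Eln+/+ replicate 3 and Eln-/- replicate 3, with the largest embryonic shares, held 0.156% and 0.133% of counts in globins. Eln-/- replicates 1 and 5, with an embryonic beta share of 0%, held 0.00286% and 0.0523% of counts in globins. The alpha-type share followed another order: its highest values were in Eln+/+ replicate 3, Eln+/+ replicate 1 and Eln-/- replicate 4, which held the most globin RNA.

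Among the alpha-type genes the mean embryonic share was lower in both genotypes, although in Eln+/+ replicate 1 it was 0.288% against 0.184% for the beta-type genes. Hba-x over all 3 alpha-type genes, per kb, was 0.288%, 0.135%, 0.429%, 0% and 0% in Eln+/+ replicates 1 to 5. It was 0%, 0.184%, 0.0734%, 0.228% and 0% in Eln-/- replicates 1 to 5. The values above 0 lay within 0.0734% to 0.429%, a narrower range than for the beta-type genes, and the genotypes overlapped. The means were 0.171% ± 0.187 (SD, n = 5) in Eln+/+ and 0.0971% ± 0.105 (SD, n = 5) in Eln-/-. Without Eln+/+ replicate 3 the first was 0.106%, and without Eln-/- replicate 4 the second was 0.0644%. A count of 0 allows shares of up to 0.0109% of 27558 alpha-type counts in Eln+/+ replicate 4, 0.0125% of 23929 in Eln+/+ replicate 5, 0.269% of 1116 in Eln-/- replicate 1 and 0.0442% of 6794 in Eln-/- replicate 5. Eln+/+ replicate 4 thus held 121 counts of Hbb-y and none of Hba-x.

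**Figure D2:**
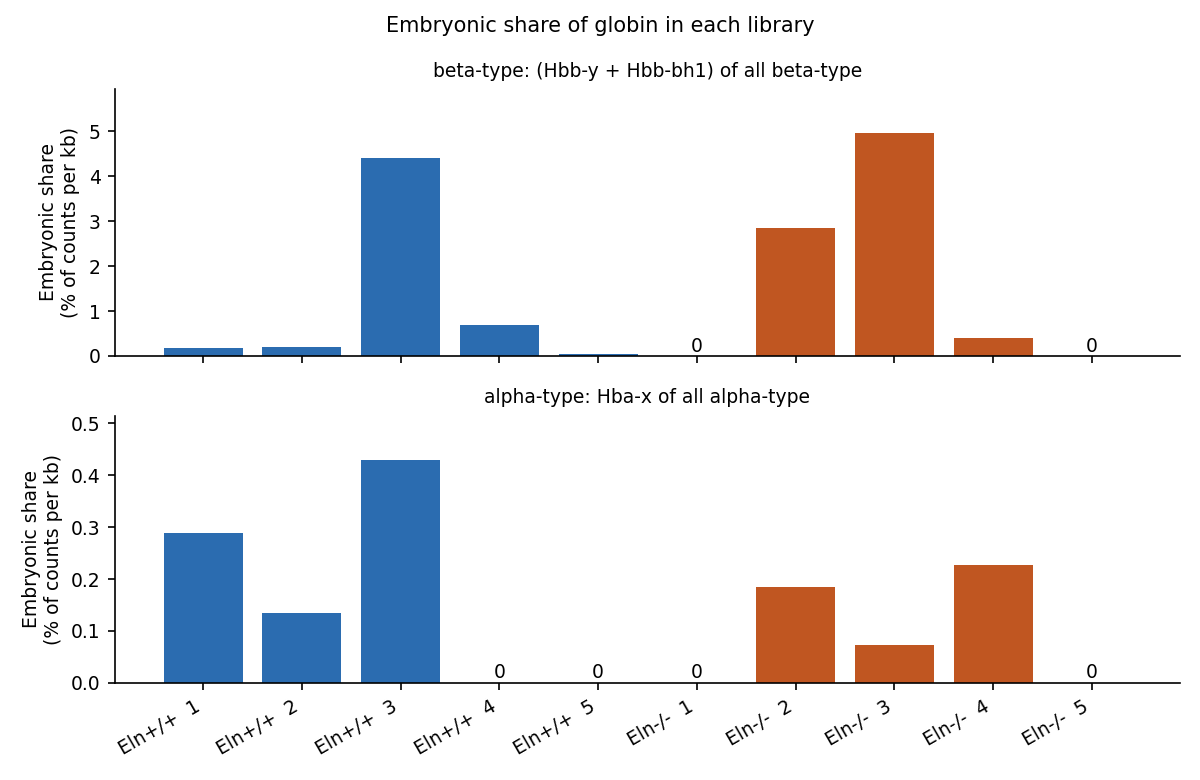
Embryonic share of beta-type globin (Hbb-y plus Hbb-bh1, upper panel) and of alpha-type globin (Hba-x, lower panel) in percent of counts per kb, with 1 bar per library coloured by genotype. The beta-type share is highest in replicate 3 of each genotype, at 4.41% and 4.96%, and no alpha-type share exceeds 0.429%.

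Alpha-type and beta-type chains pair in haemoglobin, and their RNA was compared as the log2 ratio of summed alpha-type to summed beta-type counts per kb. The ratio was -0.67, 0.48, 0.66, 0.46 and 0.13 in Eln+/+ replicates 1 to 5. It was 1.21, 0.52, 0.41, -1.13 and -0.42 in Eln-/- replicates 1 to 5. Alpha-type RNA was the more abundant in 7 libraries and beta-type RNA in 3. The means were 0.21 ± 0.53 (SD, n = 5) in Eln+/+ and 0.12 ± 0.90 (SD, n = 5) in Eln-/-, and without Eln-/- replicate 1 the second was -0.15. Leaving out 1 library moved the Eln+/+ mean between 0.10 and 0.43, the highest without replicate 1, and the Eln-/- mean up to 0.43, without replicate 4.

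The 3 libraries with more beta-type than alpha-type RNA, Eln+/+ replicate 1, Eln-/- replicate 4 and Eln-/- replicate 5, were also those with the fewest detected genes, at 15089, 15595 and 15925, against 18157 or more in the other 7. They also had the 3 lowest TMM factors, at 0.562, 0.486 and 0.847. The part of detection in the alpha to beta ratio was not tested.

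**Figure D3:**
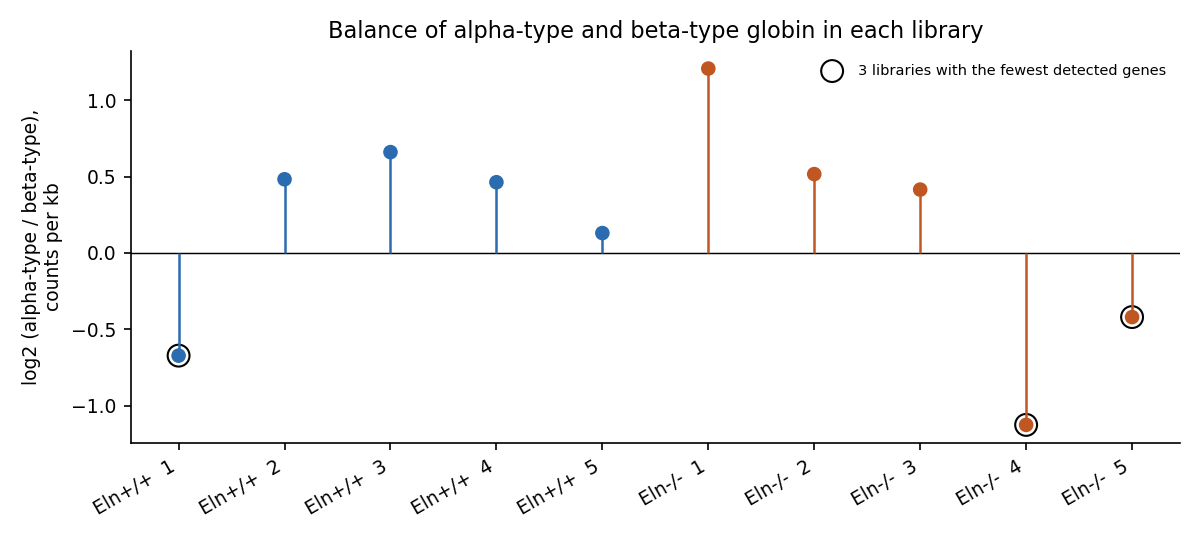
Log2 ratio of alpha-type to beta-type globin in each library, from counts per kb, with 1 point and a line to 0 per library coloured by genotype and 0 marking equal amounts. Circled, Eln+/+ replicate 1, Eln-/- replicate 4 and Eln-/- replicate 5 have the fewest detected genes and lie below 0, at -0.67, -1.13 and -0.42, and the other 7 lie above it.

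Within each adult pair the ratio of the 2 genes, on the counting's own division of shared reads, stood apart in Eln-/- replicate 1. Hba-a2 exceeded Hba-a1 per kb by 1.89, 1.93, 2.13, 2.03 and 1.99 times in Eln+/+ replicates 1 to 5 and by 2.22, 2.00, 1.71 and 2.09 times in Eln-/- replicates 2 to 5. In Eln-/- replicate 1, which had 656 Hba-a1 and 460 Hba-a2 counts, the ratio was 0.854. Hbb-bs exceeded Hbb-bt per kb by 4.91, 4.6025, 5.67, 5.83 and 4.07 times in Eln+/+ and by 3.41, 4.41, 4.36 and 4.21 times in Eln-/- replicates 2 to 5. In Eln-/- replicate 1 this ratio was 20.045, from 474 and 22 counts. This library had 1612 globin counts in all, the fewest of the 10.

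Other products that red cells are known for were low throughout, and their summed level did not follow the globins. Of 13 red cell markers other than globins, 9 were in the table, and their summed level was 3.19, 8.35, 18.0, 6.56 and 4.84 CPM in Eln+/+ replicates 1 to 5. It was 5.87, 7.68, 4.67, 3.31 and 3.89 CPM in Eln-/- replicates 1 to 5. Between 2 and 8 of the 9 markers rounded to 0 counts in a library. Eln+/+ replicate 1, the highest in globins, had the lowest sum. The next lowest sums were in Eln-/- replicates 4 and 5, and these libraries and Eln+/+ replicate 1 also had the fewest detected genes. In Eln+/+ replicate 1, 6 of the 9 markers rounded to 0 counts, in Eln-/- replicate 4 it was 8 and in Eln-/- replicate 5 it was 7. In Eln+/+ replicates 3 and 5 it was also 6. The part of detection in this mismatch was not tested.

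Summed globin CPM was 3325 times the summed red cell markers in Eln+/+ replicate 1 and 4.87 times in Eln-/- replicate 1. Alas2, the erythroid enzyme that starts haem synthesis, had 2 counts in Eln+/+ replicate 1 and 208 in Eln+/+ replicate 3. Klf1, an activator of adult beta globin, had 0 in Eln+/+ replicate 1 and 328 in Eln+/+ replicate 3, and Slc4a1, the red cell anion exchanger, had 0 counts in 5 libraries, Eln+/+ replicate 1 among them.

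Only Alas2, Klf1 and Rhd, which encodes a blood group protein, passed the filter on low counts. Across the 10 libraries, their log2 CPM and that of the summed globins had Pearson correlations of -0.19, -0.54 and -0.29 (Spearman -0.16, -0.48 and -0.27), given as a description over libraries that share their scaling with both quantities. Their log2 fold changes were -0.23 (SE 1.59), -1.09 (SE 1.91) and -1.51 (SE 1.43), and none passed the test. Neither the part of detection in these correlations nor whether red cells gave the globin counts was tested.

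**Figure D4:**
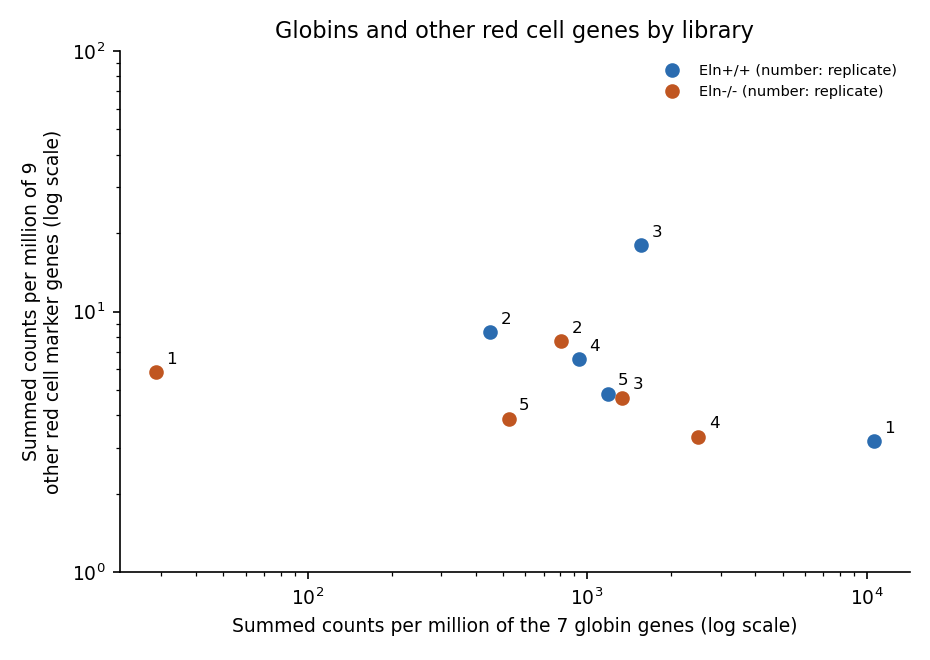
Summed CPM of the 7 globin genes against summed CPM of 9 other red cell marker genes, both on log axes, with 1 point per library coloured by genotype. Eln+/+ replicate 1 lies farthest to the right and has the lowest marker sum, 3.19 CPM, and Eln-/- replicate 1 lies farthest to the left at 5.87 CPM. The libraries with the fewest detected genes, Eln+/+ replicate 1 and Eln-/- replicates 4 and 5, have the lowest marker sums.

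Genes that serve haemoglobin in red cells were taken by role. None of the 14 tested genes of haem synthesis passed the test between genotypes. Their median log2 fold change was -0.09, against 0.02 over all genes, with 6 positive and 8 negative values. Many are housekeeping genes that any cell uses to make haem, and their summed level of 531 to 906 CPM varied much less than that of the globins. Tmem14c, a mitochondrial importer of a haem precursor, averaged 204 ± 200.2 CPM over the Eln+/+ and 333 ± 404 CPM over the Eln-/- libraries (SD, n = 5, rescaled by TMM factors), and its log2 fold change was 0.71 (SE 0.84). Among the enzymes, the log2 fold changes were -0.10 (SE 0.42) for Alad, -0.38 (SE 0.41) for Urod and -0.63 (SE 0.88) for Fech, which inserts iron in the last step. For Slc25a39, a mitochondrial carrier, it was 0.01 (SE 0.36).

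Of 22 measured genes for red cell membrane and cytoplasm proteins, 11 were tested and none passed. Their median log2 fold change was -0.23, with 2 positive and 9 negative values. The most abundant have uses in other cells too: Slc2a1, a glucose transporter, had a log2 fold change of -0.09 (SE 0.82), Gypc, a membrane skeleton anchor, -0.74 (SE 1.25) and Aqp1, a water channel, -0.19 (SE 0.89).

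Of 8 measured erythroid transcription factors, 4 were tested, with a median of -0.29 and 1 positive and 3 negative values, and none reached the level set for naming. Of 14 measured regulators of globin switching, 11 were tested, with a median of 0.25 and 7 positive and 4 negative values, and none passed. Hdac1 and Hdac2, histone deacetylases of the repressing complexes, had log2 fold changes of -0.26 (SE 0.71) and 0.71 (SE 0.45).

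Of 12 measured genes that clear haemoglobin, haem and iron, 11 were tested and none passed, with a median of -0.34 and 5 positive and 6 negative values. The ferritin chains that store iron were the most abundant, with Ftl1 at 3006 ± 1432 CPM over the Eln+/+ and 2011 ± 483 CPM over the Eln-/- libraries (SD, n = 5, rescaled by TMM factors) and a log2 fold change of -0.58 (SE 0.52). Fth1 stood at 1466 ± 918 and 875 ± 276 CPM, with -0.74 (SE 0.53). The biliverdin reductases Blvra and Blvrb had 0.16 (SE 0.55) and 0.35 (SE 0.63), the haem oxygenase Hmox2 -0.58 (SE 1.05) and the haem transporter Slc48a1 0.04 (SE 0.73). Cd163, the macrophage receptor for haemoglobin, had no counts in any library.

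Of 8 other globin family genes, 5 were in the table and 1 was tested, Cygb, which encodes cytoglobin, a globin of fibroblasts and other non-blood cells. Its log2 fold change was -0.37 (SE 1.10). Hbq1a and Hbq1b, theta globin genes of the alpha cluster, were chosen after their values were seen. In rounded counts, Hbq1a had 21 in Eln-/- replicate 2 alone, and Hbq1b had 128 in Eln-/- replicate 3 and 38 in Eln+/+ replicate 5 alone. Unrounded, Hbq1b held 6.73e-24 CPM in Eln-/- replicate 2, and Hbq1a held 2.42e-33 in Eln-/- replicate 3 and 2.83e-45 in Eln+/+ replicate 5. How the counting divided reads between these genes is not given, so which of them held the counts is uncertain.

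Likeness in log2 CPM to the summed globins over the 10 libraries was taken among tested genes outside the globin family averaging at least 2. Alas2, Klf1 and Rhd averaged 0.18, 0.56 and 0.35 and the other red cell markers were not tested, so none of these could be listed. No eligible gene of the other lists taken by role was among the 8 most alike. Of 10879 candidates with libraries rescaled by TMM factors, the highest Pearson correlations were 0.965 for Nudt1, 0.957 for Arpp19, 0.956 for Gm18101, 0.945 for H1f5, 0.944 for 1810058I24Rik, 0.943 for Gm48016, 0.942 for Coq7 and 0.940 for Glo1. Nudt1 encodes an enzyme that clears oxidised nucleotides, H1f5 a linker histone, Coq7 an enzyme of ubiquinone synthesis and Glo1 a glyoxalase. The points share library, depth and scaling, and the correlations are given as a description.

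The likeness rested on the scaling. With library totals alone the correlation was 0.943 for Nudt1, 0.928 for H1f5 and 0.926 for 1810058I24Rik, but 0.767 for Gm18101, 0.560 for Gm48016, 0.4925 for Coq7, 0.460 for Arpp19 and 0.294 for Glo1, and of the 8 most alike genes 1, Nudt1, was shared. The ranges were also unlike: on the rescaled scale the highest library exceeded the lowest 859.5-fold for the summed globins, 9.39-fold for Nudt1 and 100.3-fold for H1f5.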

How the data were processed

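The authors deposited 1 table of estimated counts per gene, not scaled for library size, and its columns were matched to the 10 libraries by sample name. The submitters' processing notes name STAR, DESeq2 and mm10. What is not given in the sources used here is which program counted, with which gene models and strand option, and any version. In each library 23.5% to 48.8% of values were not whole (tolerance 1e-06), so values were rounded to whole numbers for tests. Shares and ratios used them unrounded. Columns of other samples left unused numbered 0.

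The filter filterByExpr of edgeR left 15718 genes, which were scaled by TMM factors and tested with edgeR's quasi-likelihood test (two-sided, genotype as the only term, Benjamini-Hochberg over all genes, threshold 0.05). The standard error was the size of the log2 fold change over the square root of F. Sums, shares and ratios over members have no p-value. Counts were divided by merged exon length in GENCODE release 21 where genes were compared. Intervals are exact Clopper-Pearson at 95%, and the limit for a count of 0 is 3 counts. Totals were 26951733 to 63866416 counts per library.

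Alternatives were DESeq2, limma-voom with sample quality weights, RLE factors, library sizes without globins, no filter on low counts, a replicate block, leaving out libraries, other denominators and other lengths. After the data were seen, library totals without scaling factors, leaving out replicate 1 of both genotypes, and the longest coding transcript for the alpha to beta ratio were added. Named genes were every member and the 8 genes most like the summed globins. Up to 6 of each list at an average log2 CPM of at least 5 were also named. So were the 3 most abundant markers of each cell type, printed here for red cells only. In addition to this rule, each smooth muscle marker is given by its lowest value. Some genes that this rule names are not reported here. The members, lists and this rule were chosen with earlier results of these data known. The procedure was tested on simulated data, with a required outcome set only at a spread between libraries far smaller than in these data. The biological coefficient of variation here was 1.16, so that check does not show which changes the test could find. The tools were edgeR 4.0.16, DESeq2 1.42.0 and limma 3.58.1, run in R 4.3.3.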

Additional observations from a re-analysis of the deposited data

Results flagged for a closer look

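A check for 1 library far from the other 4 of its genotype was made on 26 sets of values, and 8 passed it (Dixon's critical value 0.71). By chance alone about 1 in 20 such sets would. In 6 of the 8 the library was Eln+/+ replicate 1: Hba-a1 at 1542.6 CPM against 99.1 to 338 in the other Eln+/+ libraries, Hba-a2 at 2399.1 against 157 to 591, Hbb-bs at 5598.1 against 161 to 516.5, and Hbb-bt at 1043.7 against 32.1 to 107. The same library had Hbb-bh1 at 1.48 CPM against 0, and 1.06% of its counts in globins against 0.0450% to 0.156%. These sets share their library and are not independent. Hbb-bh1 passed by construction, since 1 non-zero value beside zeros always does.

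Eln+/+ replicate 3 had an embryonic share of beta-type globin of 4.41% against 0.0362% to 0.683% in the other Eln+/+ libraries. Eln-/- replicate 1 had an Hbb-bs to Hbb-bt ratio of 20.045 per kb against 3.41 to 4.41 in the other Eln-/- libraries, from 22 Hbb-bt counts.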

How the results depend on the processing

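The number of genes past the threshold was 0 with edgeR, 6 with DESeq2, 7 with limma-voom with sample quality weights, 0 to 1 when each library was left out (1 without Eln-/- replicate 1), and 1 without replicate 1 of both genotypes. No member passed in any of these, but DESeq2 gave no p-value for Hba-a1, Hba-a2, Hbb-bs and Hbb-bt. The sign of the log2 fold change changed to 3.34 for Hba-x with limma-voom. With replicate 1 of both genotypes left out it became 0.60 for Hba-a1, 0.46 for Hba-a2, 0.31 for Hba-x, 1.59 for Hbb-bs and 1.80 for Hbb-bt. When each library was left out, it ranged from -2.57 to 0.32 for Hba-a1, -2.47 to 0.17 for Hba-a2, -4.08 to 0.0169 for Hba-x, -3.31 to 1.31 for Hbb-bs, -3.05 to 1.51 for Hbb-bt and -0.75 to 0.83 for Hbb-y. The mean log2 ratio of alpha-type to beta-type globin in Eln-/- ranged from -0.15 to 0.43, and the mean embryonic beta share from 0.274% to 1.37% in Eln+/+ and from 0.810% to 2.05% in Eln-/-. The mean embryonic alpha share ranged from 0.106% to 0.213% in Eln+/+ and from 0.0644% to 0.121% in Eln-/-. The cause of these changes was not tested.

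Same-numbered libraries were mostly not the most alike. Their deviations from the genotype means correlated at -0.556, 0.510, 0.118, -0.381 and 0.0920, and 1 of 5 correlated best with its own number. Differences in detection between libraries also enter these correlations, so whether same-numbered libraries share a litter or batch cannot be told from them. With the replicate block, 0 genes passed, and the log2 fold change was -0.16 for Hbb-y and 0.13 for Hbb-bt. The embryonic genes had at most 992 counts in a library, and Hbb-bh1 40.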
